A study of Mus musculus with 6 samples.

Results

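The thrombospondins are a family of secreted calcium-binding glycoproteins encoded in the mouse by Thbs1, Thbs2, Thbs3, Thbs4 and Comp. The family was taken as a whole by gene symbol, and its 5 genes were found among the 45777 genes of the count table. All 5 passed the filter on low counts that left 17210 genes for testing. Comp had no reads in the flank tumors and passed it through the footpad tumors alone. They were compared between B16F10 melanoma grown in the hind footpad, a weight-bearing site, and the same cells grown in the flank skin.

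Thrombospondins are matricellular proteins: they sit in the extracellular matrix and act on cells, growth factors and collagen rather than carrying load as a fiber does. Thbs1 and Thbs2 form trimers and carry the type 1 repeats that bind the receptor CD36 and restrain the growth of blood vessels, and thrombospondin-1 can also release active TGF-β from its latent complex. Thbs3, Thbs4 and Comp form pentamers without type 1 repeats and are best known from cartilage, bone, tendon and muscle, where they bind collagens and other matrix proteins. In skin and in skin tumors, fibroblasts, platelets, endothelial cells and phagocytes are known sources of thrombospondin-1, and fibroblasts of thrombospondin-2.

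Each site was sampled with 3 tumors, and total RNA of each tumor went into a library of its own. B16F10 is a pigmented mouse melanoma line derived from a C57BL/6 tumor. According to the labels, every host was a Foxn1-/- mouse, which lacks a thymus and mature T cells, and was 8 weeks old, and they list no further allele or agent. The methods of the study graft these cells into C57BL/6J mice and, for imaging, into Foxn1-null mice. Its legends also show these cells grafted into Foxn1-null mice in other experiments. The ages in the methods are those at implantation and lie below that of the labels, and tumors were examined days after implantation. No host is named for the sequenced tumors, so the host given here rests on the labels. A legend of the study counts the sequenced replicates as mice, and its methods inject flank and footpad of an animal at the same time, but no source ties a footpad tumor to a flank tumor of the same mouse. The labels describe removal of the tumors before RNA extraction. The methods state that tumor cells were isolated but name no method for it, and markers of other cell types were read in every library.

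Depth ran from 46529649 to 66364366 reads on genes, and 3 reads, the most that a count of 0 allows, stood for 0.0438 to 0.0673 CPM, reads scaled to a common library size. The markers of the labelled cell type were present: the summed level of 11 melanocyte lineage genes was 10260 to 19020 CPM in the footpad tumors and 15090 to 25880 CPM in the flank tumors, and all 11 genes overlapped between the sites. Footpad replicate 2 stood apart from the other footpad tumors. Its 14 skeletal muscle genes summed to 726 CPM against 7.64 and 38.0 CPM in the other footpad tumors, its keratinocyte genes to 691 CPM against 11.1 and 45.3 CPM, and its neutrophil genes to 10.9 CPM against 204 and 418.5 CPM. Values that this tumor sets are also given without it, a choice made after the data were seen.

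Because the members were all higher in the footpad, the letters in front of their genes are shown where the RefSeq table used here (build GRCm38.p6) holds them, which was for 3 of the 5. Each run is the 250 bases before the annotated start of transcription, read 5′ to 3′ on the strand of the gene. Thbs2 lies on the minus strand, with its window at chr17:14694263-14694512. The Thbs3 window, on the plus strand, is chr3:89214930-89215179, and that of Thbs4, on the minus strand, is chr13:92794819-92795068. Capitals mark matches to CATTCC, the reverse complement of GGAATG, a core motif of the TEAD factors through which YAP acts, the protein that the study followed in these tumors.
Thbs2: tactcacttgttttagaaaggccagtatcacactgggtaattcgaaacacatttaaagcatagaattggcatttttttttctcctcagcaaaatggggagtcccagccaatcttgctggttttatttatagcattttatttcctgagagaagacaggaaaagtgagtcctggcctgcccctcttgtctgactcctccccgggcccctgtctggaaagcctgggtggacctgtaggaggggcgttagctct
Thbs3: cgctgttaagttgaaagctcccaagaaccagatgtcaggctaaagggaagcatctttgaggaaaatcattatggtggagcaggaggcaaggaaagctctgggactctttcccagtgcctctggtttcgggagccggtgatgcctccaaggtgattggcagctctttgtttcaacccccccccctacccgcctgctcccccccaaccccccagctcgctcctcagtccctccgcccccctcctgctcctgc
Thbs4: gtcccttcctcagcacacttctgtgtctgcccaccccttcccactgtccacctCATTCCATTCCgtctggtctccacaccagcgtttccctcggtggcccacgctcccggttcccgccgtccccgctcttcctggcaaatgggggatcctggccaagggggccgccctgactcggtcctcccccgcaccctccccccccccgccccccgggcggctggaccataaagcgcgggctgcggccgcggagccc

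Only the Thbs4 window held the TEAD letters, as 2 matches on the minus strand that began 197 and 192 bases before the start and shared a base. The same letters were found on either strand in 12.6% of 32851 promoter windows of that length, so a match is common and describes the letters alone. The SP motif GGGCGG, present in 32.7% of all windows, occurred 3 times before Thbs4 and 1 time before Thbs3. The core SMAD motif CAGAC, present in 42.2% of windows, occurred 2 times each before Thbs2 and Thbs4. A TATAAA match on the minus strand, a motif in 12.4% of windows, lay 126 bases before the start of Thbs2, and an ACAANG (SOX) match, a motif in 36.3% of windows, lay 88 bases before that of Thbs3. The AP-1 motif TGANTCA, in 6.75% of windows, was not among the letters of any of the 3. GC content was 46.8% before Thbs2, 58.8% before Thbs3 and 70.8% before Thbs4, against a median of 52.4% over all windows.

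For all 5 thrombospondin genes, the lowest footpad tumor was above the highest flank tumor. Of all genes tested, 17.5% were higher without overlap between the sites in this direction and 14.9% were lower. Comp, without flank reads, entered the test only through the footpad tumors, so its lack of overlap was fixed by the filter. With edgeR, 3 of the 5 members, Thbs2, Thbs3 and Comp, passed an adjusted p under 0.05 with a change of 2-fold or more, against 2.89% of all genes called higher and 0.872% called lower. Thbs1 and Thbs4 did not pass. In DESeq2, which called 6.29% of its genes higher, 4 of the 5 passed, Thbs4 being the exception. In bulk RNA, fewer cells of a type and less RNA per cell cannot be told apart.

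**Figure D1:**
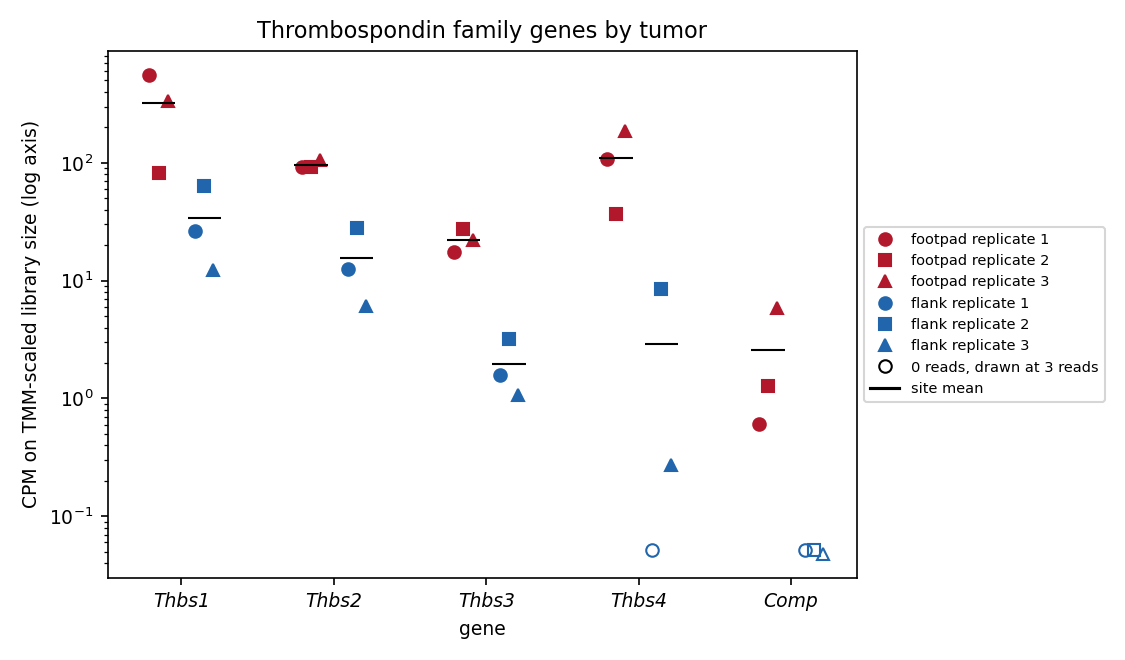
Level of the 5 thrombospondin genes in each tumor, as CPM of the TMM-scaled library on a log axis, with footpad tumors in red, flank skin tumors in blue and a line at the mean of each site. Every red point lies above every blue point of its gene, the footpad tumors are close together for Thbs2 and spread for Thbs1, Thbs4 and Comp, and open symbols mark tumors with 0 reads, drawn at the level of 3 reads.

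Among the trimer-forming members, Thbs1 (gene ID 21825, chr2:118111876-118127133 in GRCm38), which encodes the platelet and matrix protein thrombospondin-1, had the larger spread. It was read 24934, 5651 and 16286 times in footpad replicates 1, 2 and 3 and 1518, 3706 and 776 times in flank replicates 1, 2 and 3. Scaled to library size with TMM, edgeR's factor for comparing libraries, this was 559.7, 82.4 and 332.5 CPM in the footpad and 26.2, 63.4 and 12.4 CPM in the flank. The sites came close to each other, since the lowest footpad tumor, replicate 2, was 1.30 times the highest flank tumor, and without it this ratio was 5.25. The footpad mean of 325 ± 239 CPM (SD, n = 3) was 9.56 times the flank mean of 34.0 ± 26.4 CPM, or 13.1 times without footpad replicate 2. On the log2 scale the difference was 3.26 (SE 0.80, 95% interval 1.38 to 5.13), with an adjusted p of 0.0607 by edgeR's quasi-likelihood test. Without footpad replicate 2 it was 3.71 with an adjusted p of 0.0304, and Thbs1 passed.

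Thbs2 (gene ID 21826, chr17:14665500-14694262), whose product shapes collagen fibrils and restrains vessel growth, differed from Thbs1 in how even it was across the footpad. Its counts were 4097, 6284 and 5200 in the footpad tumors and 727, 1643 and 378 in the flank tumors. These were 92.0, 91.7 and 106.2 CPM in the footpad and 12.5, 28.1 and 6.04 CPM in the flank. The highest footpad tumor was 1.16 times the lowest, whereas for Thbs1 this ratio was 6.79. The mean rose from 15.6 ± 11.3 CPM in the flank to 96.6 ± 8.29 CPM in the footpad (SD, n = 3 each), and the log2 fold change was 2.63 (SE 0.50, 95% interval 1.48 to 3.79, adjusted p = 0.0340, edgeR).

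Of the pentamer-forming members, Thbs3 (gene ID 21827, chr3:89215180-89226841), a matrix protein with a role in skeletal growth, had the lowest p-value of the family. It had 774, 1873 and 1081 reads in the footpad and 91, 188 and 67 reads in the flank. The corresponding levels were 17.4, 27.3 and 22.1 CPM and 1.57, 3.22 and 1.07 CPM. No other member that was read in the flank tumors was separated as far between the sites, with the lowest footpad tumor 5.40 times the highest flank tumor. Thbs3 rose from 1.95 ± 1.12 CPM to 22.3 ± 4.97 CPM (SD, n = 3 each), with a log2 fold change of 3.51 (SE 0.43, 95% interval 2.51 to 4.51) and an adjusted p of 0.0141 in edgeR. By p-value it ranked 62 among all genes tested.

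Thbs4 (gene ID 21828, chr13:92751586-92794818), a matrix protein of tendon and muscle that is also found in healing tissue, was uneven among the flank tumors. Reads numbered 4805, 2530 and 9129 in the footpad and 0, 494 and 17 in the flank. In CPM the footpad tumors had 107.9, 36.9 and 186.4 and the flank tumors 0, 8.45 and 0.272. The sites did not overlap, although flank replicate 2 alone carried nearly all flank reads. The footpad mean was 110 ± 74.8 CPM and the flank mean 2.91 ± 4.80 CPM (SD, n = 3 each), 38.0 times lower. The fitted log2 fold change was 5.25 with an SE of 1.56 and a 95% interval from 1.62 to 8.88, and its adjusted p of 0.0922 (edgeR) missed the threshold. Without flank replicate 2 the fitted value was 9.60 and the adjusted p 0.0224.

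Comp (gene ID 12845, chr8:70373548-70382066), the cartilage oligomeric matrix protein that bridges collagen fibrils in cartilage and tendon, was the least abundant member. It was read 27, 88 and 289 times in the footpad tumors and 0 times in all flank tumors. Footpad levels were 0.606, 1.28 and 5.90 CPM, whereas 0 reads in the flank libraries allow at most 0.0479 to 0.0517 CPM. Comp was thus at least 51.6-fold higher in the footpad, taking 3 reads per flank library as the floor. This bound moved with the tumor that had most reads: it was 117 for footpad replicate 3 alone, 12.0 for replicate 1 alone, 25.5 for replicate 2 alone, and 18.8 without replicate 3. The adjusted p in edgeR was 0.0375.

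Because the sites did not overlap for any of the 5 genes, leaving out a tumor could not turn their direction. In each edgeR fit without 1 tumor, all 5 still had an unadjusted p under 0.05 and a change of 2-fold or more. The adjusted p-values did not hold as well. With edgeR, the number of members called was 0 without footpad replicate 1, 0 without footpad replicate 3 and 0 without flank replicate 3, 1 without flank replicate 1, 3 without flank replicate 2 and 4 without footpad replicate 2. Thbs3 was called in 3 of these 6 fits, and its adjusted p reached 0.0611 without footpad replicate 1, 0.0703 without footpad replicate 3 and 0.0517 without flank replicate 3. Thbs2 was called in 2 of the 6 fits, and its adjusted p was 0.111, 0.124, 0.0807 and 0.0703 without footpad replicate 1, footpad replicate 3, flank replicate 1 and flank replicate 3. Of these fits, Comp was called only in that without footpad replicate 2, with an adjusted p of 0.0433, and reached 0.105 without flank replicate 3. Over the 6 fits the adjusted p ran from 0.0304 to 0.176 for Thbs1, 0.0119 to 0.124 for Thbs2, 0.00636 to 0.0703 for Thbs3 and 0.0224 to 0.227 for Thbs4. The share of all genes called higher moved as well, from 2.89% to 0.145%, 3.62% and 0% without footpad replicates 1, 2 and 3 and to 1.30%, 2.39% and 0.201% without flank replicates 1, 2 and 3. Where it was 0%, edgeR had 3289 of 17969 genes at an unadjusted p under 0.05.

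**Figure D2:**
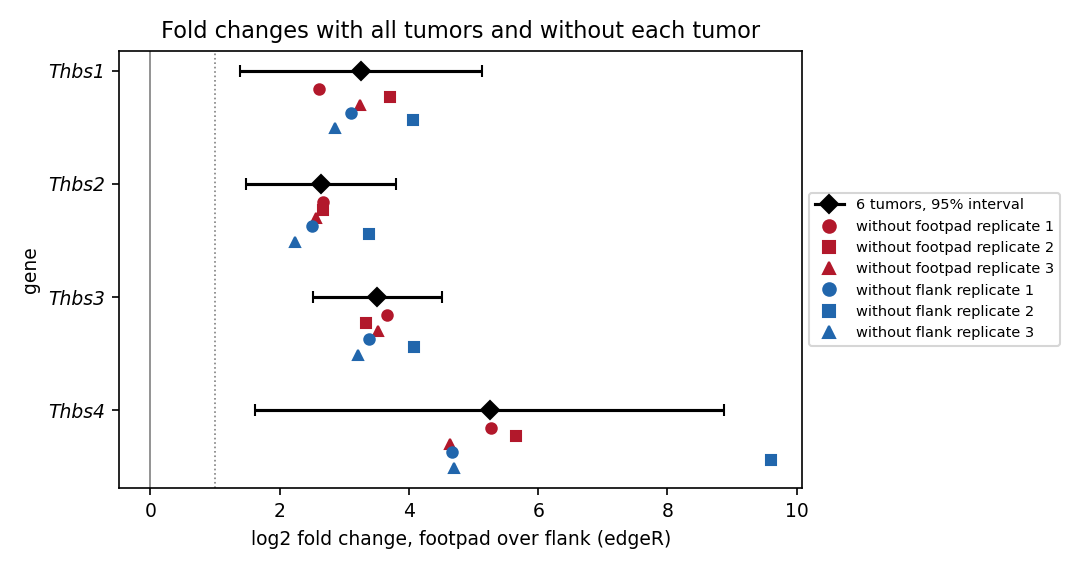
Log2 fold change of footpad over flank in edgeR for the 4 members read in both sites, with all 6 tumors (black diamonds with 95% intervals) and without each tumor in turn (colored symbols); the solid line marks no change and the dotted line 2-fold. All points lie right of 2-fold, those of Thbs3 run from 3.21 to 4.07, and the point of Thbs4 without flank replicate 2 lies at 9.60.

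Levels of different genes can be set side by side per transcript length, for which the deposited FPKM (fragments scaled to transcript length and library depth) was used. The 5 genes summed to 123.5, 47.1 and 129.6 FPKM in the footpad tumors and 5.80, 18.6 and 3.16 FPKM in the flank tumors. The site means of this sum, 100.1 ± 46.0 and 9.20 ± 8.28 FPKM (SD, n = 3 each), differed 10.9 times, and 13.8 times without footpad replicate 2. Thbs1 had the highest mean in both sites, with 78.5, 13.2 and 51.8 FPKM in the footpad and 3.66, 10.5 and 1.88 FPKM in the flank. It was not the highest member in every footpad tumor. Thbs2 was above it in replicate 2, at 14.5 FPKM, and Thbs4 in replicate 3, at 53.0 FPKM. Among the genes tested, Thbs1 stood at percentiles 96.6, 71.5 and 93.2 of FPKM in the footpad tumors and 48.5, 65.9 and 39.1 in the flank tumors.

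The order of the other members differed between the sites in the place of Thbs4. In the footpad, mean FPKM fell from Thbs1 (47.8) through Thbs4 (30.5), Thbs2 (14.5) and Thbs3 (6.28) to Comp (0.966). The upper places were not separated by the tumors: Thbs1 exceeded Thbs4 in 2 of 3 footpad tumors, and Thbs4 exceeded Thbs2 in 2 of 3. In the flank the order was Thbs1 (5.35), Thbs2 (2.41), Thbs4 (0.876), Thbs3 (0.557) and Comp (0), where Thbs4 was above Thbs3 in 1 of 3 tumors only. Thbs2 was above Thbs3, and Thbs3 above Comp, in every tumor of both sites.

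As a share of the family sum, Thbs4 made up 22.4% to 40.9% in the footpad and 0% to 13.7% in the flank. Thbs1 made up 28.1% to 63.5% in the footpad and 56.4% to 63.2% in the flank, so that its shares overlapped. Thbs2 overlapped too, with 10.3% to 30.9% against 24.7% to 29.9%, and so did Thbs3, with 3.63% to 17.0% against 5.23% to 9.36%. Footpad replicate 2 set the upper ends for Thbs2 and Thbs3 and the lower end for Thbs1. Without it, the footpad shares were at most 12.6% for Thbs2 and 4.89% for Thbs3, under every flank share, and at least 39.9% for Thbs1. Comp reached at most 1.71%.

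**Figure D3:**
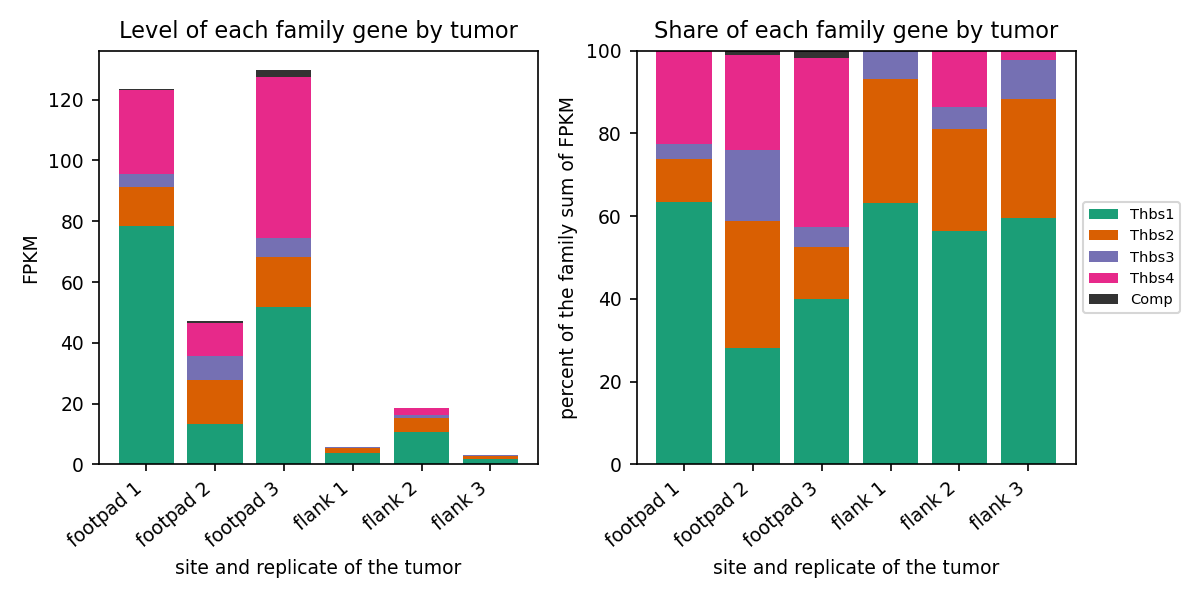
Stacked levels of the 5 genes in each tumor in FPKM (left) and as percent of their sum (right). The sum is 47.1 FPKM or more in each footpad tumor and 18.6 FPKM or less in each flank tumor, and Thbs4 (pink) takes at least 22.4% of the sum in the footpad and at most 13.7% in the flank.

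To ask whether members moved by different amounts, the log2 CPM of 2 members was subtracted within each tumor for all 10 pairs, and sites were compared by a two-sided exact permutation test, in which 3 tumors against 3 cannot give a p below 0.1. In 5 pairs the sites did not overlap, each with the smallest p of 0.1 and 0.2 after adjustment over the 10 pairs. Of the pairs without a tumor at 0 reads, this was so for Thbs2 and Thbs3 alone. Thbs2 exceeded Thbs3 by 2.40, 1.75 and 2.27 in the footpad tumors and by 2.98, 3.12 and 2.48 in the flank tumors, a mean of 2.14 ± 0.35 against 2.86 ± 0.34 (SD, n = 3 each). Thbs3 thus differed more between the sites than Thbs2 by 0.72 on the log2 scale in these tumors. For Thbs1 and Thbs2 the difference was 2.61, -0.15 and 1.65 in the footpad and 1.06, 1.17 and 1.04 in the flank, and the sites overlapped (exact p = 0.7). Without footpad replicate 2 the sites no longer overlapped for this pair, with a difference between site means of 1.04 in place of 0.28, nor for Thbs3 and Thbs4, and the difference for Thbs1 and Thbs3 turned from -0.45 to 0.51, with overlap in both cases. The other 4 pairs without overlap involved Thbs4 or Comp, where the size depends on the prior count of 1 that stands in for 0 reads.

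Markers of fibroblasts moved with the family. Of 16 fibroblast genes, all 16 were higher in the footpad by their fitted change, 15 without overlap between the sites, and 12 were called by edgeR. Over all genes tested, these shares were 49.7%, 17.5% and 2.89%. The summed level of the 16 markers was 2901, 2914 and 3919 CPM in the footpad and 140, 478 and 176 CPM in the flank, and no marker was at 0 in every tumor. Flank replicate 2, the highest flank tumor for this sum, was also the highest flank tumor for Thbs1, Thbs2, Thbs3 and Thbs4. The part of fibroblast content in the differences of the thrombospondin genes was not tested.

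Set against the mean log2 CPM of the 16 fibroblast genes in the same tumor, the members were compared again. Thbs3 was -0.76, -0.01 and -0.79 relative to the markers in the footpad and 0.16, -1.04 and -0.56 in the flank, a difference between site means of -0.04 (exact p = 1). Thbs1 differed by -0.49, with overlap (exact p = 0.7, adjusted 0.875). Thbs2 lay at 1.65, 1.74 and 1.48 in the footpad and at 3.15, 2.08 and 1.92 in the flank, a difference of -0.76, with every footpad value under every flank value. Thbs4 was higher relative to the markers by 4.35, with 1.88, 0.43 and 2.29 in the footpad and -6.33, 0.35 and -2.47 in the flank. The sites nearly touched for Thbs4, at 0.43 in footpad replicate 2 and 0.35 in flank replicate 2. The value of -6.33 belongs to flank replicate 1, with 0 Thbs4 reads, and is set by the prior count. Without that tumor the Thbs4 difference was 2.59, and with a prior count of 0.25 it was 4.85. Comp was higher by 2.92, a value that also depends on the prior count. The markers Dpt and Pi16 had 0 reads in flank replicates 1 and 3, so the marker mean moves with it too. At a prior count of 0.25 the Thbs2 difference was -0.95. Thbs2, Thbs4 and Comp each had the smallest exact p that 3 against 3 tumors can give, 0.1, and 0.167 after adjustment over the 5 members.

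**Figure D4:**
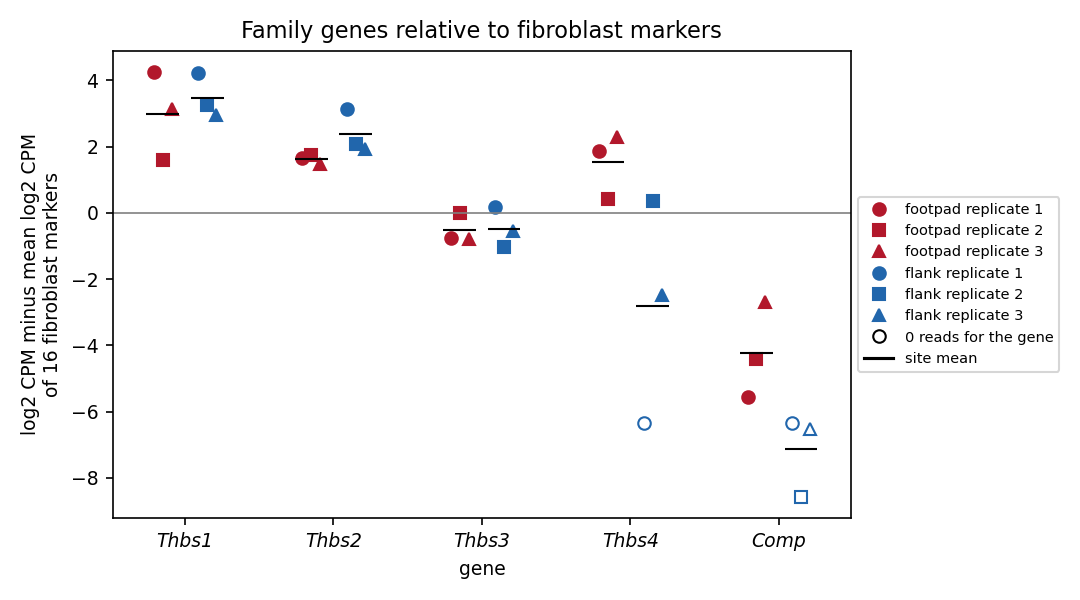
Log2 CPM of each member minus the mean log2 CPM of 16 fibroblast markers in the same tumor, with lines at the site means; open symbols have 0 reads for the member. Red and blue points mix for Thbs1 and Thbs3, the blue points lie higher for Thbs2, and the red points lie higher for Thbs4 and Comp.

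Tendon and cartilage, tissues in which Thbs4 and Comp are abundant, were looked for by their own markers. Of 5 tendon genes only Fmod, a collagen-binding proteoglycan, had enough reads to be tested, and it rose (log2 fold change 4.04, adjusted p = 0.0349, edgeR). The 5 genes summed to 1.78 to 5.15 CPM in the footpad and 0.0345 to 0.274 CPM in the flank. Tnmd, a defining tendon gene, had 3, 30 and 19 reads in the footpad tumors and 0 in the flank tumors, Scx had 0, 8 and 0 against 0, 3 and 0, and Kera was at 0 in every tumor. The 16 cartilage genes summed to 79.5 to 93.1 CPM in the footpad and 185 to 376 CPM in the flank. Of the 9 tested, 2, Col2a1 and Col9a1, were called lower, and 4 were lower without overlap, against 0.872% and 14.9% of all genes tested. The largest part of the sum was the link protein gene Hapln1, with 51.5, 64.5 and 69.2 CPM in the footpad and 86.7, 239.9 and 281 CPM in the flank (adjusted p = 0.0531, not called). The list was uneven: Acan, Matn1, Chad, Cnmd, Snorc and Epyc had at most 20 reads in any tumor and Ucma had none. The other cartilage genes were read in every tumor, except Col9a2, which had 0 reads in footpad replicate 1. Col2a1 had 326, 381 and 257 reads in the footpad and 2736, 1810 and 2551 in the flank. Sox9 had 374, 464 and 295 reads against 890, 161 and 232, and Matn3 had 107, 413 and 192 against 184, 269 and 515. The part of tendon or cartilage tissue in the levels of Thbs4 and Comp was not tested.

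Other sources of thrombospondin-1 were followed by the same kind of list. The 11 platelet genes summed to 30.9, 13.7 and 24.1 CPM in the footpad and 24.1, 15.6 and 3.16 CPM in the flank. Of the 10 tested, 1 was higher without overlap, against 17.5% of all genes tested. The 12 endothelial genes summed to 326 to 375 CPM against 183 to 222 CPM, with 4 called higher, and the 10 macrophage genes to 208 to 221 CPM against 151 to 204 CPM, with 1 called higher. Of all genes tested, 2.89% were called higher. Genes of pericytes and smooth muscle overlapped in their sum, at 101 to 183 CPM and 62.1 to 122 CPM. The 10 neutrophil genes summed to 418.5, 10.9 and 204 CPM in the footpad and 20.7, 35.6 and 5.23 CPM in the flank, and none was at 0 in every tumor. Within each site the neutrophil sum ranked the tumors as Thbs1 did, with footpad replicate 1 highest and replicate 2 lowest, and flank replicate 2 highest and replicate 3 lowest. Skeletal muscle genes summed to 38.0, 726 and 7.64 CPM against 8.81, 76.2 and 12.2 CPM, and keratinocyte genes to 45.3, 691 and 11.1 CPM against 1.60, 4.82 and 12.5 CPM. Their part in the thrombospondin values was not tested.

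The receptors of thrombospondins did not pass the test in edgeR. Of 13 receptor genes, it called 0, with 5 at an unadjusted p under 0.05. DESeq2, which called 6.29% of its genes higher, called 4 of the 13. Of all 17210 genes tested in edgeR, 4349 had an unadjusted p under 0.05. The median log2 fold change of the receptors was 0.31, against -0.0042 over all genes tested. Of the 13, 6 were higher without overlap, against 17.5% of all genes tested. Cacna2d1, the calcium channel subunit that binds thrombospondins in the nervous system, differed by 1.95 (adjusted p = 0.0514) and Lrp1, which takes up thrombospondin complexes, by 1.45 (adjusted p = 0.0514). Itgb3, a subunit of an integrin that binds the RGD motif of thrombospondin-1, differed by 1.57 (adjusted p = 0.0740), with 105.7, 240.5 and 101.3 CPM in the footpad and 76.1, 39.3 and 35.5 CPM in the flank. Cd36 had 37.3 to 41.6 CPM in the footpad and 25.3 to 38.7 CPM in the flank, and Cd47 had 43.7 to 53.6 and 32.8 to 50.3 CPM. Neither of these classical receptors was separated between the sites.

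Matrix proteins that bind thrombospondins moved in both directions. Of 14 genes, 12 were tested, and 3 were called higher and 3 lower, against 2.89% and 0.872% of all genes tested. The median log2 fold change of the 12 was -0.30. Those that rose were the type I collagen genes Col1a1 (4.10, adjusted p = 0.0206) and Col1a2 (3.74, adjusted p = 0.0237) and the fibronectin gene Fn1 (2.24, adjusted p = 0.0105). Those that fell were the cartilage collagens Col2a1 (-2.72, adjusted p = 0.00677) and Col9a1 (-3.43, adjusted p = 0.00677) and the matrilin gene Matn4 (-4.35, adjusted p = 0.0382). Col2a1 and Col9a1, which encode binding partners of COMP in cartilage, were thus higher in the flank tumors, in which Comp had no reads. Col1a1 and Col1a2 also stand in the fibroblast list.

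Proteases that cut or bind thrombospondins included 9 tested genes of 10, of which edgeR called 0. DESeq2, with 6.29% of its genes called higher, called 4. In edgeR 5 had an unadjusted p under 0.05, against 4349 of 17210 over all genes. All 9 had a fitted change above 0, with a median of 1.64, and 4 were higher without overlap. Of all genes tested, 49.7% had a fitted change above 0 and 17.5% were higher without overlap. The largest fitted change was that of the gelatinase gene Mmp9, at 3.86 with an adjusted p of 0.112. Mmp9 had 31.1, 0.583 and 12.3 CPM in the footpad and 0.448, 2.02 and 0.543 CPM in the flank, so that footpad replicate 2 lay within the flank range. Adamts7 and Adamts12, which degrade COMP, differed by 1.91 (adjusted p = 0.0766) and 0.66 (adjusted p = 0.116).

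Genes of TGF-β signaling were counted because thrombospondin-1 can release active TGF-β. Of 10 ligand, latency and receptor genes, 9 were tested, and 5 were higher without overlap, against 17.5% of all genes tested. Their median log2 fold change was 0.63, against -0.0042 over all genes. Called higher was 1, against 2.89% of all genes. This was Lrrc32, which encodes the GARP protein that holds latent TGF-β on cell surfaces. It rose from 0.431, 1.11 and 0.447 CPM in the flank to 7.86, 4.22 and 6.02 CPM in the footpad (log2 fold change 3.18, adjusted p = 0.0205). The ligands overlapped between the sites, with log2 differences of 0.59 for Tgfb1, 0.06 for Tgfb2 and -0.18 for Tgfb3. Of 12 TGF-β target genes, 4 were called higher, against 2.89% of all genes tested. All 12 had a fitted change above 0, with a median of 2.07, against 49.7% of all genes above 0. The called genes included Col1a1, Col3a1 (4.08, adjusted p = 0.0254) and Acta2 (1.49, adjusted p = 0.0357). Col1a1 and Col3a1 are also fibroblast markers, and Acta2 is expressed by smooth muscle and myofibroblasts.

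The type 1 repeat that Thbs1 and Thbs2 carry is shared by many other proteins, of which 27 genes were listed and 16 tested. Unc5b, a netrin receptor (1.82, adjusted p = 0.0141), and Ccn4, a matricellular protein (2.25, adjusted p = 0.0275), rose. The median over the 16 genes was a log2 fold change of 1.17, with 8 higher and 2 lower without overlap, against 17.5% and 14.9% of all genes tested. Cilp, which encodes a matrix protein of cartilage and fibrotic tissue, had 60.9, 47.1 and 68.1 CPM in the footpad and 0, 8.71 and 0.447 CPM in the flank, a pattern in the flank like that of Thbs4, but its adjusted p was 0.112.

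**Figure D5:**
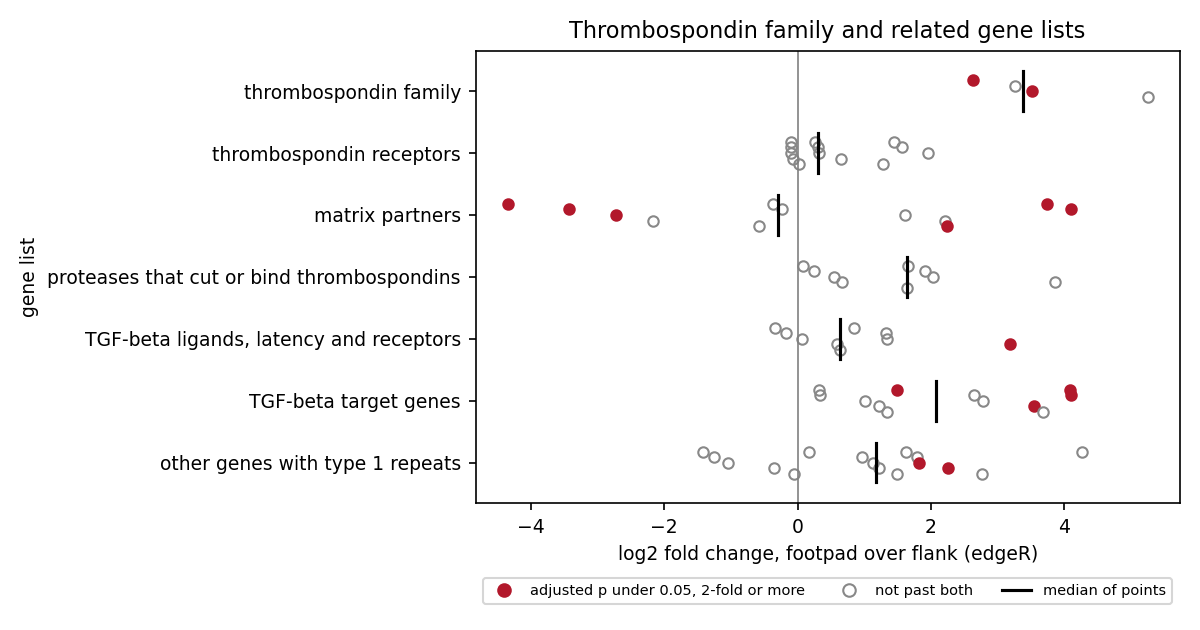
Log2 fold change of footpad over flank in edgeR for 4 family genes (Comp is left out because it had 0 reads in the flank) and for the tested genes of 6 related lists, with a bar at the median of the points. Filled points passed an adjusted p under 0.05 and 2-fold; the receptor points crowd near 0, the matrix partners spread to both sides, and the TGF-β target genes all lie above 0.

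For each member, the tested genes outside the family whose log2 CPM followed it most closely over the 6 tumors were ranked by Pearson's r among 17202 genes. With 6 tumors in groups of 3, which share site and library, such values describe the likeness only. Thbs1 was followed by Slfn5, Rhot2, Clec4d, Il1r2 and Ifi207 (r from 0.9954 to 0.9995), of which Clec4d and Il1r2, the latter a decoy receptor for interleukin-1, are in the neutrophil list. Il1r2 had 21.9, 1.14 and 8.90 CPM in the footpad and 0.328, 0.941 and 0.128 CPM in the flank. Thbs2 was followed by Loxl1, Igfbp5, P4ha3, Ptgis and Pcdhb17 (0.9958 to 0.9977), and Loxl1, an enzyme that cross-links elastin and collagen, and P4ha3, a subunit of the collagen prolyl hydroxylase, act in matrix assembly. Loxl1 is also a fibroblast marker, and its levels of 22.6, 20.3 and 26.4 CPM in the footpad were about as even as those of Thbs2.

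The genes most like the pentamer-forming members were other ones. Thbs3 was followed by Galnt16, Gm14137, Zbtb7c, Fstl1 and Rab30 (0.995 to 0.9994), of which Fstl1, a secreted glycoprotein of mesenchymal cells, was the most abundant, at 156 to 230 CPM in the footpad and 27.5 to 47.7 CPM in the flank. Thbs4 was followed by Dok2, Tpbg, Pdgfra, Smoc2 and Tgfbi (0.9958 to 0.9974). The log2 value of Thbs4 in flank replicate 1, with 0 reads, is set by the prior count and weighs on these r values. Pdgfra, a growth factor receptor of fibroblasts, had 33.7, 26.7 and 43.7 CPM in the footpad and 0.621, 10.4 and 2.99 CPM in the flank, with the order of tumors of Thbs4. Comp was followed by Plpbp, Tcfl5, Atp10a, Cavin3 and Ak1 (0.9852 to 0.9952), and its own log2 value in the flank tumors, all with 0 reads, is set by the prior count.

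Genes next to the family members on the chromosome were compared in the same fit. Of the 9 tested protein-coding neighbors, edgeR called 0 and DESeq2 called 1, where DESeq2 called 6.29% of its genes higher. In edgeR 2 had an unadjusted p under 0.05, against 4349 of 17210 over all genes. Mtx1, a mitochondrial import gene that lies 1272 bases from Thbs3, had a log2 fold change of -0.14 (adjusted p = 0.651) against 3.51 for Thbs3. Crtc1, 285 bases from Comp, had 0.60 (adjusted p = 0.216). The neighbors of Thbs4, Serinc5 and Mtx3, had 0.43 and -0.03, and those of Thbs1, Rasgrp1 and Fsip1, had at most 73 reads in any tumor. Smoc2, a matricellular gene 260709 bases from Thbs2, was the exception in size, with 3.29 (adjusted p = 0.0739). The long noncoding genes Gm51533 and LOC115489723, which overlap Comp and Thbs3, had 0 reads in every tumor.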

How the data were processed

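RNA of 3 footpad and 3 flank skin B16F10 tumors was analysed, with the site and replicate of each taken from the labels. The authors trimmed reads with Trimmomatic, aligned them with HISAT2 2.1.0 to mm10 after FastQC 0.11.7, and counted them on RefSeq genes. The table they deposited holds raw counts, whole numbers of reads on each gene. FPKM, in which the authors divided by transcript length and depth, was deposited separately for each tumor and joined here by gene ID. Which program counted the reads, and how it handled those with several matches, is not given in the sources used here. No table column was left without a sample (0 of those used).

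Counts were fitted in R 4.3.3 with edgeR 4.0.16 over all 17210 genes kept by filterByExpr, with TMM scaling, glmQLFit, glmQLFTest and Benjamini-Hochberg adjustment. The common biological coefficient of variation was 0.338. Calls needed a change of 2-fold or more and an adjusted p below 0.05. The SE of a log2 fold change was its absolute value divided by the square root of the test's F statistic. The 95% interval was a symmetric t interval from this SE, so both are approximate. Single values were compared by two-sided exact permutation over the tumors, on log2 CPM with a prior count of 1. A fold against tumors all at 0 reads is a lower bound at 3 reads per library, which covers counting error only. Alternatives were DESeq2 1.42.0 (the authors' tool), limma 3.58.1 on log2(FPKM + 1) and log2(FPKM + 0.1), other scaling factors, filters, thresholds and prior counts, the replicate number as a block, and leaving out each tumor. The fits were tested on simulated data.

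The members and all gene lists were chosen with earlier results of these data known. Named genes are the members, list genes past both thresholds or with the largest changes, the 5 genes most like each member over the 6 tumors, and the nearest protein-coding genes. Cd36, Cd47, Adamts7, Adamts12, Cilp, the TGF-β ligands and the genes named as examples of a marker list were named beyond this rule, after their values were seen. Promoter sequences and coordinates were from RefSeq (GRCm38.p6), which matched 5 of 5 members by gene ID. Protein sequences were not used here. The values of 1 listed gene are not reported here. Plots were made in Python 3.11.15 with pandas 2.3.3, numpy 2.4.6, scipy 1.17.1 and matplotlib 3.10.9.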

Additional observations from a re-analysis of the deposited data

How the results depend on the processing

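No alternative turned the sign of a member's fold change between the sites, and all 5 stayed higher in the footpad in every fit that held them. Since the sites did not overlap for any member, leaving out a tumor could not have turned it. Thbs1 crossed the threshold in DESeq2 (log2 fold change 3.25), with a filter of 10 counts in every tumor (3.29) and in limma on log2(FPKM + 0.1) (3.14), and Thbs4 crossed it in limma with a pseudocount of 1 (4.07) and with 0.1 (6.14). In limma without a filter, Thbs2 (2.33), Thbs3 (2.22) and Comp (0.84) no longer passed, and Comp also missed it in limma on log2(FPKM + 1) with the filter (0.84), a scale that understates changes of genes this low. Thbs4 and Comp have no value under the filter of 10 counts, which removes them.

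Samples with the same replicate number did not deviate together (r of 0.05, -0.10 and -0.11 for replicates 1, 2 and 3), so the numbers were not taken to pair the tumors. The methods inject both sites of an animal, but no source ties tumors by number. With the replicate block, Thbs2 (2.89), Thbs3 (3.63) and Comp (10.17, against 0 flank reads and so no bound) were not called, edgeR called 0 of 17210 genes, with 3551 at an unadjusted p under 0.05, and every list had 0 called.

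The number of members called was 5 in limma on log2(FPKM + 0.1) and 5 at an adjusted p under 0.1. It was 0 in limma without a filter (4 at an unadjusted p under 0.05) and 0 with the block (5 at an unadjusted p under 0.05). The share of all genes past the threshold of 0.1 was not computed. Thbs4, at an adjusted p of 0.0922 in edgeR, ranked 1997 by p-value among the 17210 genes tested. Receptors called numbered 4 in DESeq2, 1 without a filter on low counts, 2 with 10 counts in every tumor, and 1 and 2 in limma at pseudocounts of 1 and 0.1. Proteases called numbered 4 in DESeq2 and 1 each with 10 counts in every tumor and in limma with either pseudocount. Matrix partners called were 3 in limma without a filter and 0 with the block. For TGF-β ligands, latency and receptors these were 2 in DESeq2, 0 in limma without a filter and 0 with the block, and for TGF-β target genes 8, 0 and 0. Other genes with type 1 repeats called numbered 7 in DESeq2, 4 with 10 counts in every tumor, 4 and 5 in limma with the filter at the larger and smaller pseudocount, 0 in limma without a filter and 0 with the block. Over all genes, 497 were called higher and 150 lower, against 1209 and 367 in DESeq2, 271 and 95 in limma on log2(FPKM + 1), and 42 and 9 in limma without a filter. The share of all genes called higher was 3.71% in limma on log2(FPKM + 0.1), 1.58% in limma on log2(FPKM + 1) and 0.146% in limma without a filter. In edgeR it was 1.64% without a filter on low counts and 3.76% with 10 counts in every tumor.

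Leaving out each tumor in turn gave log2 fold changes of 2.61 to 4.07 for Thbs1, 2.24 to 3.37 for Thbs2, 3.21 to 4.07 for Thbs3 and 4.64 to 9.60 for Thbs4, and fitted values of 8.79 to 10.73 for Comp, which are no bounds. Called were 0 to 4 members, 0 to 1 receptors, 0 to 7 matrix partners, 0 to 2 proteases, 0 to 2 TGF-β ligands, latency and receptor genes, 0 to 6 TGF-β target genes and 0 to 4 other genes with type 1 repeats. Relative to the fibroblast markers, the site difference was -1.12 to 0.22 for Thbs1, -0.99 to -0.38 for Thbs2, -0.32 to 0.28 for Thbs3, 2.59 to 5.93 for Thbs4 and 2.16 to 3.59 for Comp, and Comp was at 4.71 with a prior count of 0.25. The cause of these changes was not tested. Over the alternatives other than leaving out a tumor, the adjusted p ran from 0.00434 to 0.202 for Thbs1, 4.98e-09 to 0.0879 for Thbs2, 1.22e-18 to 0.0552 for Thbs3, 0.0195 to 0.160 for Thbs4 and 1.60e-09 to 0.387 for Comp. Depth bears on the members with the fewest reads, Thbs4 with 17 reads in flank replicate 3 and Comp with 27 in footpad replicate 1.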
